A study of Mus musculus with 6 samples.

Results

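The actin genes of the mouse gastrocnemius, a mostly fast-fibred calf muscle, are described here in wild-type muscle and in muscle that lacks lnc-ORA, a long non-coding RNA. They are the muscle actin genes Acta1, Actc1 and Acta2, the cytoplasmic actin genes Actb and Actg1, and the microRNA genes Mir6935 and Gm23419, which lie inside Actg1 and check how reads of the host gene were shared. These 7 genes were taken by name from the 11815 genes of the deposited table, and all 7 reached 1 RPKM in at least 3 libraries, as 7574 genes did. The set was chosen by earlier results of the same comparison of knockout with wild type, so the differences of these 7 genes are given as a description, with no test.

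Wild-type (WT) muscle gave 3 libraries, labelled replicates 2, 3 and 4. Knockout (KO) muscle gave 3 libraries, labelled replicates 1, 2 and 3, from lnc-ORA KO mice 15 weeks old on a C57BL/6 background. The KO line carried a CRISPR deletion of 5147 bp that spans the whole lnc-ORA transcript, made by injecting Cas9 mRNA and guide RNAs into fertilised eggs. Founders were bred with wild-type mice, and the labels give neither the age of the WT mice, nor the number of founder lines, nor whether the libraries of a genotype are from separate animals. The p-values below therefore measure only the spread between these libraries, which may be technical. The libraries held 54370181 to 69693905 counted reads. The deleted locus itself was not analysed here. All 12 markers of skeletal muscle fibres had values, and their summed level was 132702 to 153901 RPKM in WT and 152423 to 169906 in KO.

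Actins are near-identical proteins that assemble into filaments. Skeletal α-actin (Acta1) builds the thin filaments of adult skeletal muscle, cardiac α-actin (Actc1) is the main sarcomeric actin of the heart and is co-expressed in developing and regenerating skeletal muscle, and smooth muscle α-actin (Acta2) marks vessel walls. The β (Actb) and γ (Actg1) cytoplasmic actins form the cytoskeleton of all cell types. The transcription factor SRF, helped by coactivators of the MRTF family that free actin monomers hold in the cytoplasm, binds a DNA motif called the CArG box in the promoters of many actin genes.

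The CArG box is CC, then 6 letters that are each A or T, then GG, and its reverse complement has the same form. It was searched in the 300 bases around the start of each gene, 250 before and 50 after, in RefSeq promoter windows of build GRCm38.p6. Windows were matched for 4 of the actin genes, Acta1, Actc1, Acta2 and Actg1, and those with the motif are shown because they place the SRF motif in both muscle and cytoplasmic actins, with the box in capitals.
Acta1 at chr8:123894819-123894868, minus strand: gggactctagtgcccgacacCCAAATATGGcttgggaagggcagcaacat
Actc1 at chr2:114052893-114052942, minus strand: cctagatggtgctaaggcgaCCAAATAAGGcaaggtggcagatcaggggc
Actg1 at chr11:120348556-120348605, minus strand: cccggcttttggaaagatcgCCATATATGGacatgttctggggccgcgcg
The box began 73, 47 and 90 bases upstream of the RefSeq start in Acta1, Actc1 and Actg1. The Acta2 window held no exact match, but it held ccctatatgg and ccttgtttgg, which each depart from the pattern at a single letter. Such near matches were not searched in the other windows. The motif occurred in 535 of 32851 promoter windows, or 1.63%, and in 1.3% of the 10881 windows of genes in the deposited table. A match is a description of the letters and not a measured binding site.

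The sequences of the microRNA genes are shown because both lie in the transcribed Actg1 sequence. The annotated mature microRNA of Mir6935 is printed 5′ to 3′ with its seed, bases 2 to 8, in capitals, and the hairpin follows with the same 3′ arm in capitals, both from RefSeq (GRCm38.p6). Gm23419 is printed from the reference genome of build GRCm38.
mmu-miR-6935-3p: uGUUCUUUgucuuuccacag
Mir6935 hairpin: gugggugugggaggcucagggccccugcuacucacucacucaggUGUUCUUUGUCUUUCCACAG
Gm23419: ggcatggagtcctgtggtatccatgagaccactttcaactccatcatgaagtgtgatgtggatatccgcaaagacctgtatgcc
The seed GUUCUUU was shared with 1 other of 1738 mature mouse sequences, mmu-miR-7092-3p. In GENCODE M21 on GRCm38, Actg1 occupies chromosome 11 from 120345690 to 120348542 on the minus strand, with 9 transcripts. Mir6935 is a 64-base gene at 120347350 to 120347413. It lies wholly within an intron of 5 Actg1 transcripts, and in 4 of these its last base abuts the next exon. Its bases are exonic in 2 transcripts, both of which retain that intron, and the other 2 do not reach it. Gm23419 is an 84-base gene at 120346736 to 120346819, and 83 of its bases are in an exon of 5 Actg1 transcripts. All 84 letters occur in the spliced sequence of those 5 transcripts.

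**Figure D1:**
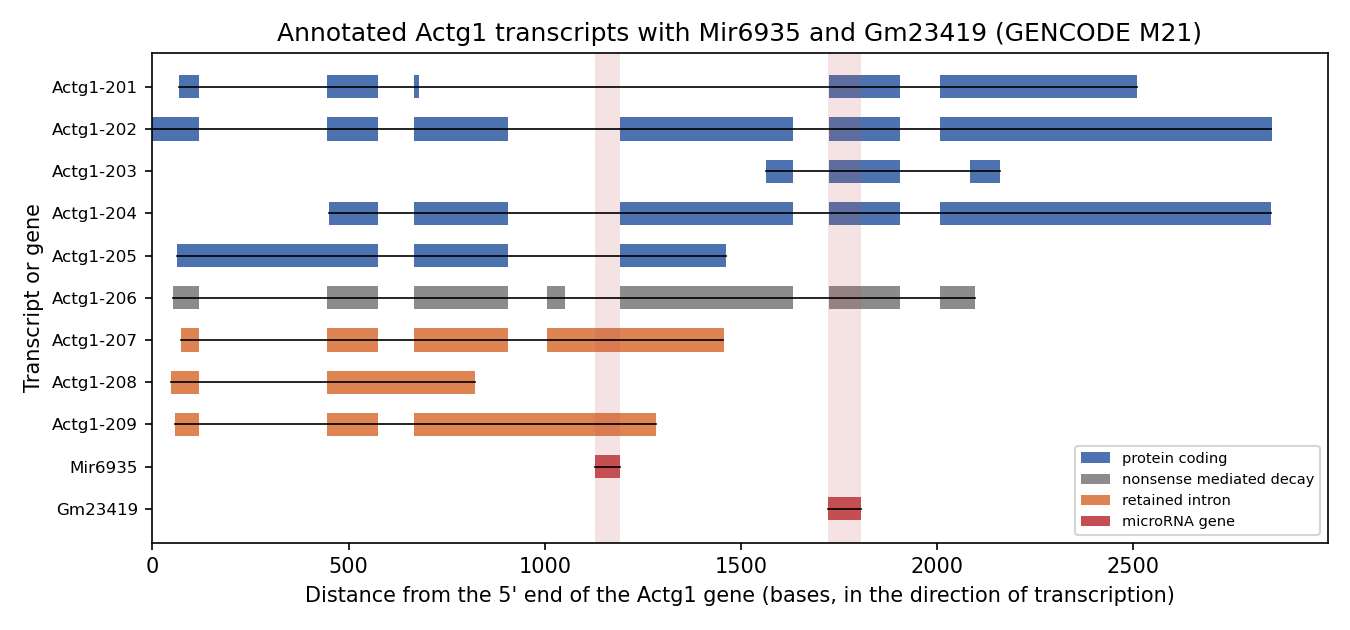
Exons (boxes) and introns (lines) of the 9 annotated Actg1 transcripts and the positions of Mir6935 and Gm23419, with distance in bases from the 5′ end of the gene on the horizontal axis. Gm23419 falls in an exon of 5 transcripts, whereas Mir6935 falls in an intron of 5 and in the retained intron of 2.

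Actg1 was the actin with the largest difference between genotypes. Its level was 17.9, 12.9 and 17.6 RPKM (counted reads scaled to gene length and library total) in WT replicates 2, 3 and 4. In KO replicates 1, 2 and 3 it was 46.1, 44.3 and 45.8 RPKM, so the lowest KO library was far above the highest WT library. The means were 16.1 ± 2.83 and 45.4 ± 0.961 RPKM (SD, n = 3 each), 2.82-fold higher in KO, with a log2 fold change of 1.45 (SE 0.12). Here and below, log2 fold changes are KO over WT on the log2(RPKM + 1) scale. The level rested on 1858 to 3322 reads per WT library and 6550 to 8426 per KO library.

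Actb, the other cytoplasmic actin gene (chromosome 5, 142903115 to 142906754, minus strand), was also higher in every KO library. Its level was 12.5, 12.9 and 14.1 RPKM in WT and 23.0, 18.5 and 19.2 RPKM in KO. The means were 13.2 ± 0.821 and 20.2 ± 2.42 RPKM (SD, n = 3 each), 1.53-fold higher in KO, with a log2 fold change of 0.58 (SE 0.10). Actg1 and Actb together came to 29.3 ± 3.13 RPKM in WT against 65.6 ± 3.21 in KO (± SD, n = 3 each), 2.24-fold higher.

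The cytoplasmic pair did not keep its ratio. Actg1 over Actb was 1.43, 0.996 and 1.25 in the WT libraries and 2.01, 2.40 and 2.39 in the KO libraries, a log2 difference of 0.90, and the groups did not overlap. Actg1 made up 54.7 ± 4.52% of the summed level of the pair in WT against 69.3 ± 2.17% in KO (± SD, n = 3 each). In bulk muscle, a change in the number of cells of a type cannot be told apart from a change in RNA per cell.

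Acta1, the skeletal muscle actin gene (chromosome 8, 123891769 to 123894751, minus strand), was nearly level between genotypes. It stood at 5596, 5669 and 5562 RPKM in WT replicates 2, 3 and 4 and at 5544, 5729 and 6198 RPKM in KO replicates 1, 2 and 3. KO libraries lay on both sides of the WT values. The means were 5609 ± 55.1 and 5823 ± 337 RPKM (SD, n = 3 each), with a log2 fold change of 0.05 (SE 0.09). It was 0.01 without KO replicate 3, 0.09 without KO replicate 1, 0.15 with equal library medians and 0.20 with totals that leave out the 10 most abundant genes. This gene alone took 0.854 to 0.871% of all counted reads in WT and 0.852 to 0.952% in KO.

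Actc1, the cardiac actin gene (chromosome 2, 114047282 to 114053548, minus strand), varied most of the 5 actins among WT libraries. Its level was 57.9, 129.5 and 167.0 RPKM in WT replicates 2, 3 and 4, against 58.2, 56.8 and 67.9 RPKM in KO replicates 1, 2 and 3. WT replicate 2 sat among the KO libraries, and the other WT libraries were higher than any KO library. The means were 118 ± 55.4 and 61.0 ± 6.06 RPKM (SD, n = 3 each), with a log2 fold change of -0.82 (SE 0.33). Leaving out WT replicate 2 moved the log2 fold change to -1.26, and leaving out WT replicate 4 moved it to -0.51. With a replicate block, which rests on the numbers found in both genotypes, it was -0.47. Actc1 over Acta1 was 0.0104, 0.0228 and 0.0300 in WT and 0.0105, 0.00992 and 0.0110 in KO, so the ratio followed Actc1.

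Markers of regenerating fibres, which express Actc1, were measured in the same libraries. The list of satellite cell and regenerating fibre markers had 10 of 13 genes in the table, and their summed level was 44.7 to 58.0 RPKM in WT and 50.3 to 57.7 in KO, with no separation. Myh8 and Myh3 made up most of that sum. Embryonic and perinatal myosin heavy chains Myh3 and Myh8 did not pass (adjusted p = 0.317 and 0.44, limma with Benjamini-Hochberg adjustment). Myog, a myogenic transcription factor, was the single called gene of the 6 tested (16.7%), beside 13.5% called lower over all tested genes. It stood at 2.18 ± 0.269 RPKM in WT against 1.21 ± 0.41 in KO (± SD, n = 3 each, adjusted p = 0.0293 in limma). That call was lost without WT replicate 2 or 3, without KO replicate 2 or 3 and under both other scalings of the libraries, with an adjusted p of up to 0.109. Pax7, a satellite cell factor, stood at 0.140 to 0.211 RPKM in WT and 0.0675 to 0.106 in KO. Myod1, a myogenic factor, stood at 0.586 to 0.902 and 0.510 to 0.560 RPKM. Both were too low to be tested in the main fit. Each was lower in every KO library than in any WT library, as were 30.0% of all tested genes. Ncam1 and Chrna1, also too low to be tested, overlapped between genotypes. The part of these cells in the Actc1 values was not tested.

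Acta2, the smooth muscle actin gene (chromosome 19, 34241090 to 34255590, minus strand), was the lowest of the 5 actins. Its level was 11.2, 6.51 and 9.45 RPKM in WT and 8.73, 10.6 and 6.45 RPKM in KO, and the groups overlapped throughout. The means were 9.06 ± 2.38 and 8.58 ± 2.07 RPKM (SD, n = 3 each), with a log2 fold change of -0.06 (SE 0.21). The log2 fold change was -0.26 without WT replicate 3, -0.02 without WT replicate 4 and -0.21 without KO replicate 2. Its sign turned positive when WT replicate 2 (0.09) or KO replicate 3 (0.11) was left out, with equal library medians (0.04) and with totals that leave out the 10 most abundant genes (0.07). Markers of smooth muscle and pericytes, of which 12 of 14 had values, summed to 102 to 139 RPKM in WT and 118 to 138 in KO.

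**Figure D2:**
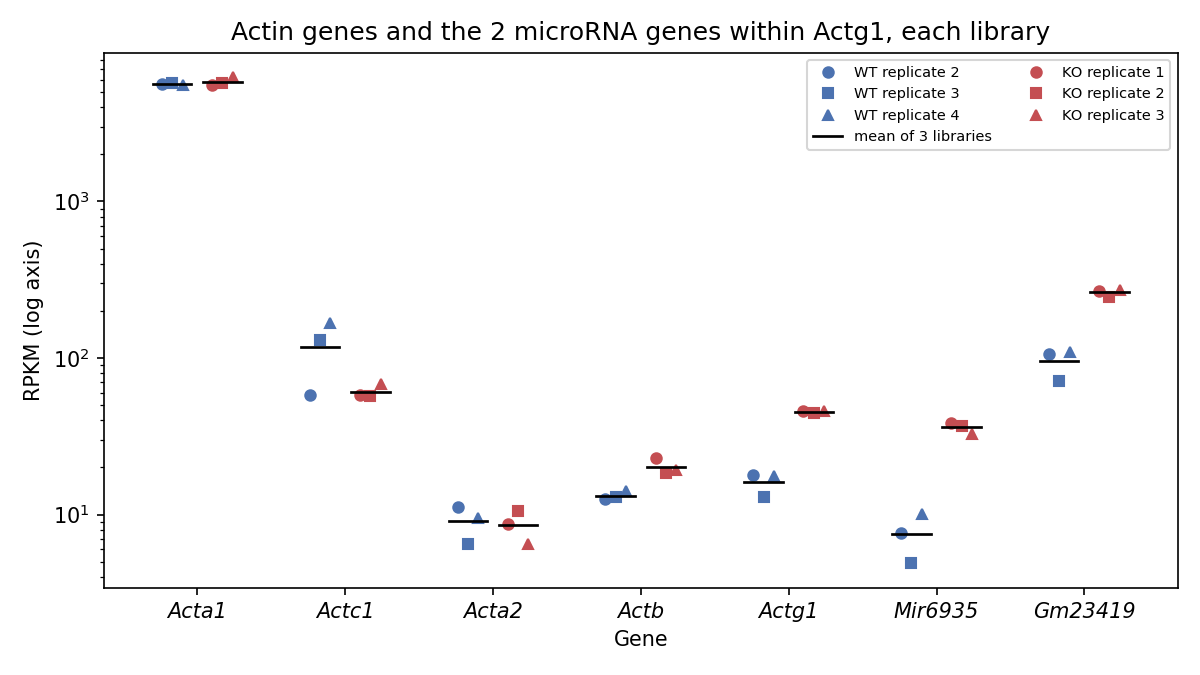
Level of each of the 7 genes in every library (RPKM, log axis), with WT libraries in blue, KO libraries in red and a line at the mean of 3 libraries. Actb, Actg1, Mir6935 and Gm23419 are higher in all KO libraries than in any WT library, Acta1 and Acta2 overlap, and Actc1 in WT replicate 2 sits with the KO libraries.

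By these levels the order of the actins was the same in both genotypes, Acta1 first, then Actc1, Actg1, Actb and Acta2. In WT, Actg1 (12.9 to 17.9 RPKM) and Actb (12.5 to 14.1 RPKM) overlapped, and the other neighbours in the order did not. In KO no neighbours overlapped, with Actc1 at 56.8 to 67.9 RPKM above Actg1 at 44.3 to 46.1. The 5 actins summed to 5766 ± 67.8 RPKM in WT against 5959 ± 340 in KO (± SD, n = 3 each). Acta1 made up 96.4 to 98.3% of that sum in WT and 97.6 to 97.8% in KO, while the cytoplasmic pair made up 0.509 ± 0.0583% and 1.10 ± 0.10%. These levels divide by all annotated exon bases of a gene, which for Actg1 (2658 bases) and Actb (2679 bases) exceed their coding transcripts (1952 and 1920 bases). Per base of the main coding transcript, a measure added after the data were seen, the order of the means stayed as above. On that scale KO Actc1 (62.4 to 74.6 RPKM) and KO Actg1 (60.3 to 62.8 RPKM) overlapped, so the gap between them rests on the gene length used.

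Of the 7 genes, 4 did not overlap between genotypes with KO higher (Actb, Actg1, Mir6935 and Gm23419) and 0 with KO lower. Among all 7574 tested genes, 9.22% were separated with KO higher and 30.0% with KO lower. By limma at an adjusted p under 0.05, 3.83% of tested genes were called higher (290 genes) and 13.5% lower (1021 genes). Since the set was selected on this contrast, nothing is read from the count of 4. The split of calls depended on scaling: with equal library medians it was 602 higher and 665 lower, and with totals that leave out the 10 most abundant genes it was 774 higher and 751 lower. The median log2 fold change of all tested genes moved from -0.09 to 0.02 under the latter, and the values of single genes move with it.

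Gm23419 kept a fixed ratio to its host gene, whose spliced transcripts hold its full sequence, so the values of the pair are not independent. Its level was 105, 71.6 and 109 RPKM in WT and 268, 246 and 272 RPKM in KO, with means of 95.5 ± 20.8 and 262 ± 14.3 (SD, n = 3 each) and a log2 fold change of 1.47 (SE 0.16). The ratio of Gm23419 to Actg1 was 5.88, 5.57 and 6.22 in WT and 5.81, 5.54 and 5.94 in KO, a log2 difference of -0.03 with overlapping groups. Its counts came to 327 to 617 reads in WT and 1147 to 1548 in KO. RPKM of a gene this short is not comparable with that of a long gene, because reads can reach past its ends, so only its ratio between libraries is used.

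Mir6935 differed between genotypes by more than its host. Its level was 7.62, 4.89 and 10.01 RPKM in WT and 38.4, 36.8 and 32.7 RPKM in KO, with means of 7.51 ± 2.57 and 36.0 ± 2.95 (SD, n = 3 each). The mean was 4.79-fold higher in KO, with a log2 fold change of 2.16 (SE 0.20). It rested on few reads, 34, 17 and 42 in WT and 169, 131 and 128 in KO.

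The ratio of Mir6935 to Actg1 was 0.425, 0.380 and 0.570 in WT and 0.833, 0.831 and 0.715 in KO, a log2 difference of 0.81, and the groups did not overlap. Reads over Mir6935 can come from an intron of most Actg1 transcripts or reach into the next exon, and which transcript they came from was not tested. For comparison, 32 other genes under 200 bases lay wholly inside an exon of a longer gene of the table on the same strand, in 33 pairs with 29 host genes. In 32 of the 33 pairs the small gene and its host differed in the same direction. The log2 ratio of the small gene minus that of its host ran from -0.64 to 0.55, with a median of -0.01, and for Mir6935 and Actg1 it was 0.77. The pairs were not matched to Mir6935 in read number or in how often the small gene is intronic. Mir6935 was also selected on this contrast, so nothing is read from its place outside that range. The libraries were made from fragmented mRNA, so these values are not read as levels of mature microRNAs.

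**Figure D3:**
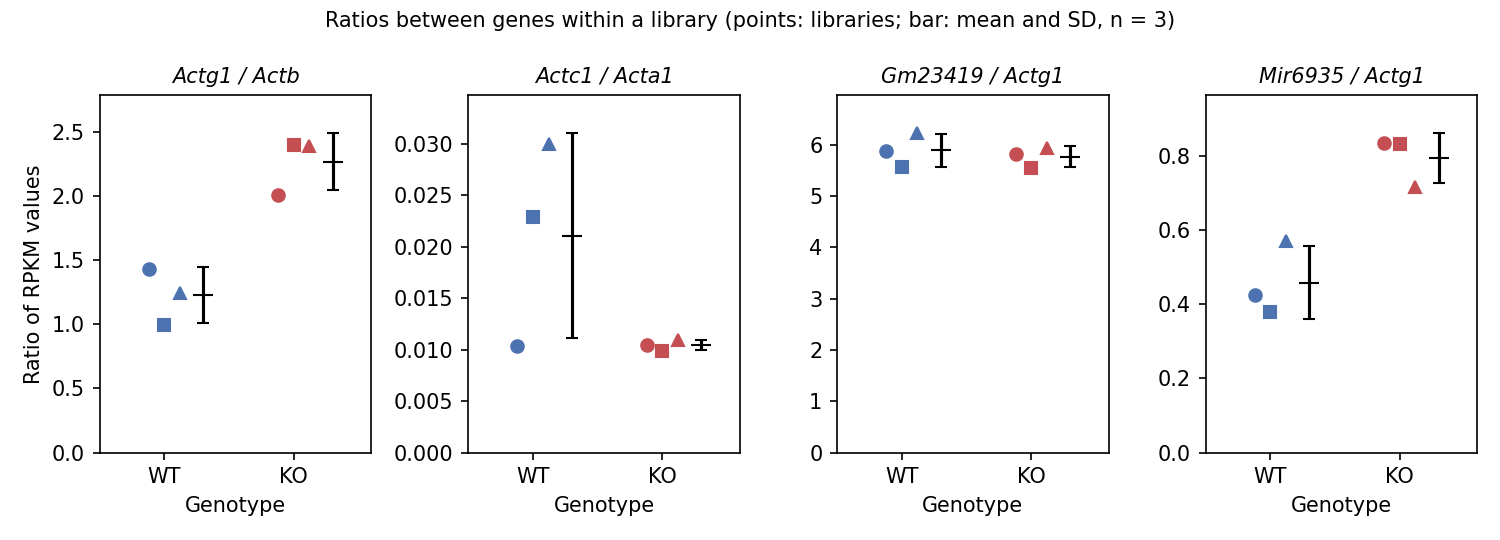
Ratios of RPKM within each library for Actg1 to Actb, Actc1 to Acta1, Gm23419 to Actg1 and Mir6935 to Actg1, with 1 point per library and a bar at the mean ± SD (n = 3 per genotype). Gm23419 keeps its ratio to Actg1 at 5.54 to 6.22 in all 6 libraries, and the ratios of Actg1 to Actb and of Mir6935 to Actg1 are separated by genotype.

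Actins share much of their sequence, which sets how far reads can be assigned. The coding sequences, 1131 bases in the muscle actins and 1125 in the cytoplasmic ones, were 88.6% identical between Actb and Actg1, 86.3% between Acta1 and Actc1 and 81.5% between Acta2 and Actg1, the lowest pair. The longest identical run was 77 bases, between Acta1 and Actb. Of all 50-base stretches of the main coding transcript, 56.7% of those of Actg1 occurred in a transcript of another gene, against 14.2% for Actb, 2.22% for Acta1, 0.352% for Acta2 and 0 for Actc1. Most of the Actg1 stretches, 51.1% of all, occurred in the annotated pseudogene Gm12715. No source used here says how the authors treated reads with several matches, so Actg1 and Gm12715 are uncertain as separate values.

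Gm12715 followed Actg1. Its level was 3.32, 3.0 and 3.30 RPKM in WT and 8.36, 8.78 and 8.83 RPKM in KO, with means of 3.21 ± 0.179 and 8.66 ± 0.259 (SD, n = 3 each) and a log2 fold change of 1.20 (SE 0.08). Lrrc58, which shares 9.57% of the Actb stretches, did not pass the test, at 1.94 ± 0.547 RPKM in WT and 2.02 ± 0.179 in KO (adjusted p = 0.801 in limma). On the opposite strand, Gm20388 overlaps Acta1 and A530058N18Rik overlaps Actc1, with 0 exon bases shared.

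Genes that regulate, bind or link actin were counted in 10 lists with 185 gene symbols, of which 163 had values and 137 were tested. Some genes were listed under an older and a newer symbol, such as Ctgf and Ccn2, with values under the older one only. Of the 137 tested, 5 were called higher (3.65%) and 12 lower (8.76%), against 3.83% and 13.5% of all tested genes. Whether the shares differ was not tested. The median log2 fold change over those 137 genes was -0.01, against -0.09 over all 7574. With equal library medians the counts were 18 higher and 9 lower, and with totals that leave out the 10 most abundant genes they were 21 and 9. Of the 17 called genes, 7 stayed under 0.05 in every alternative and with each library left out (Fhl1, Ctgf, Cyr61, Tpm4, Twf2, Coro6 and Palld). Adjusted p in the paragraphs on these genes and on cell type markers are from limma with Benjamini-Hochberg adjustment over all tested genes.

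Among SRF and its partners, 1 of 8 tested genes was called higher (12.5%) and 3 lower (37.5%), beside 3.83% and 13.5% of all tested genes. Srf itself did not pass, at 3.88 ± 0.413 RPKM in WT against 4.40 ± 0.359 in KO (± SD, n = 3 each, adjusted p = 0.305 in limma). Fhl1, a muscle LIM domain protein, fell to 25.1 ± 8.20 RPKM in KO from 53.1 ± 3.39 in WT (log2 fold change -1.10, SE 0.19, adjusted p = 0.00949). Abra, a muscle protein that promotes MRTF and SRF activity, rose to 230 ± 49.9 RPKM in KO from 128 ± 49.7 in WT (0.88, SE 0.25, adjusted p = 0.0481). The call of Abra was lost without WT replicate 3 or 4 or without any 1 KO library, with an adjusted p of up to 0.150. Elk4, an ETS factor that binds with SRF, was called lower at -0.51 and was no longer called once WT replicate 3 or any 1 KO library was left out (adjusted p 0.0185, up to 0.0739). Mkl2, which encodes MRTF-B, was called lower at -0.23 and lost its call without any 1 KO library, without the filter on low values, under both other scalings and with a replicate block (adjusted p 0.0467, up to 0.202).

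Of 13 tested SRF target genes other than the actins, 1 was called higher (7.69%) and 2 lower (15.4%), beside 3.83% and 13.5% of all tested genes. Tpm4, a cytoskeletal tropomyosin, rose to 22.0 ± 0.972 RPKM in KO from 11.2 ± 2.56 in WT (log2 fold change 0.94, SE 0.14, adjusted p = 0.00602). Cyr61 and Ctgf, secreted matricellular proteins, fell by 0.98 (from 3.91 ± 0.884 to 1.46 ± 0.0347 RPKM, adjusted p = 0.00353) and 0.88 (from 4.18 ± 1.14 to 1.78 ± 0.386 RPKM, adjusted p = 0.0127) on the log2 scale. Vcl (vinculin) and Tpm1, the muscle tropomyosin, did not pass (adjusted p = 0.245 and 0.259). The targets thus held called genes in both directions, with a median log2 fold change of 0.01.

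Among genes that bind actin monomers or turn filaments over, 1 of 7 (14.3%) and 2 of 11 (18.2%) tested genes were called, all lower, beside 13.5% called lower over all tested genes. Twf2 (twinfilin-2, which sequesters monomers) fell to 9.92 ± 0.691 RPKM in KO from 23.8 ± 6.56 in WT (log2 fold change -1.15, SE 0.17, adjusted p = 0.00587). Coro6, a coronin, fell to 21.7 ± 1.26 RPKM in KO from 41.9 ± 4.28 in WT (-0.91, SE 0.10, adjusted p = 0.00166). Ssh2, a phosphatase that activates cofilin, was called lower at -0.60 and was no longer called once WT replicate 3 or any 1 KO library was left out (adjusted p 0.0363, up to 0.116). The cofilins Cfl1 and Cfl2 did not pass (adjusted p = 0.412 and 0.417). The abundant monomer buffer Tmsb4x stood at 13.3 ± 1.95 and 15.9 ± 0.357 RPKM (adjusted p = 0.151).

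Genes that cap, nucleate or link filaments are read against the same shares over all tested genes, 3.83% higher and 13.5% lower. Of 13 tested genes that set filament ends and length, none was called, and the smallest adjusted p was 0.0943 for Lmod3, a leiomodin of the thin filament, at 41.3 ± 4.57 and 50.2 ± 3.02 RPKM; the unadjusted p was 0.0239. Of 19 nucleation genes, the formin Fmnl2 alone was called, lower at -0.30, and its call was lost without WT replicate 3 or 4, without any 1 KO library, under both other scalings and with a replicate block (adjusted p 0.0286, up to 0.140). Palld, which encodes the actin bundler palladin, rose to 6.24 ± 0.532 RPKM in KO from 3.70 ± 0.360 in WT (log2 fold change 0.62, SE 0.09, adjusted p = 0.00586).

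Of 25 tested crosslinkers and membrane links, Palld and Tln2 were called higher and Actn2 lower. Tln2 (talin-2) was called at 0.27 and was no longer called once WT replicate 3 or 4, any 1 KO library or the filter on low values was left out, nor with a replicate block (adjusted p 0.0471, up to 0.161). Actn2, α-actinin-2 of the Z-disc, fell to 162 ± 47.2 RPKM in KO from 288 ± 54.9 in WT (log2 fold change -0.85, adjusted p = 0.0290) and was no longer called once WT replicate 2 or 3 or KO replicate 1 or 3 was left out (up to 0.112). The list's median was 0.12, the highest of the 10 lists.

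In the list of non-muscle actomyosin, 2 of 15 tested genes (13.3%) were called, both lower, close to the 13.5% over all tested genes. Myh14, a non-muscle myosin II heavy chain, fell to 20.3 ± 2.21 RPKM in KO from 38.1 ± 9.76 in WT (log2 fold change -0.85, adjusted p = 0.0173) and was no longer called once WT replicate 3 or KO replicate 1 or 3 was left out (up to 0.0701). Ppp1r12a, the targeting subunit of myosin phosphatase, was called lower at -0.37 and was no longer called once WT replicate 2 or 3 or any 1 KO library was left out, nor under either other scaling (adjusted p 0.0386, up to 0.147). Of the 9 tested actin-related proteins, Actr3b alone was called, higher (11.1%, beside 3.83% called higher over all tested genes). Actr3b, a subunit of an Arp2/3 complex, had a log2 fold change of 0.54. It was no longer called once WT replicate 2 or 4 or KO replicate 1 or 3 was left out (adjusted p 0.0341, up to 0.124).

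None of the 17 tested genes for actin folding and maturation was called, a list that holds the CCT chaperonin that folds new actin and Setd3, which methylates it. The smallest adjusted p was 0.0758 for Cct2, at 49.1 ± 3.86 and 40.9 ± 1.06 RPKM (SD, n = 3 each), with an unadjusted p of 0.0169. Setd3 stood at 26.0 ± 2.12 and 24.5 ± 1.47 RPKM. The median log2 fold change of this list was 0.00.

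**Figure D4:**
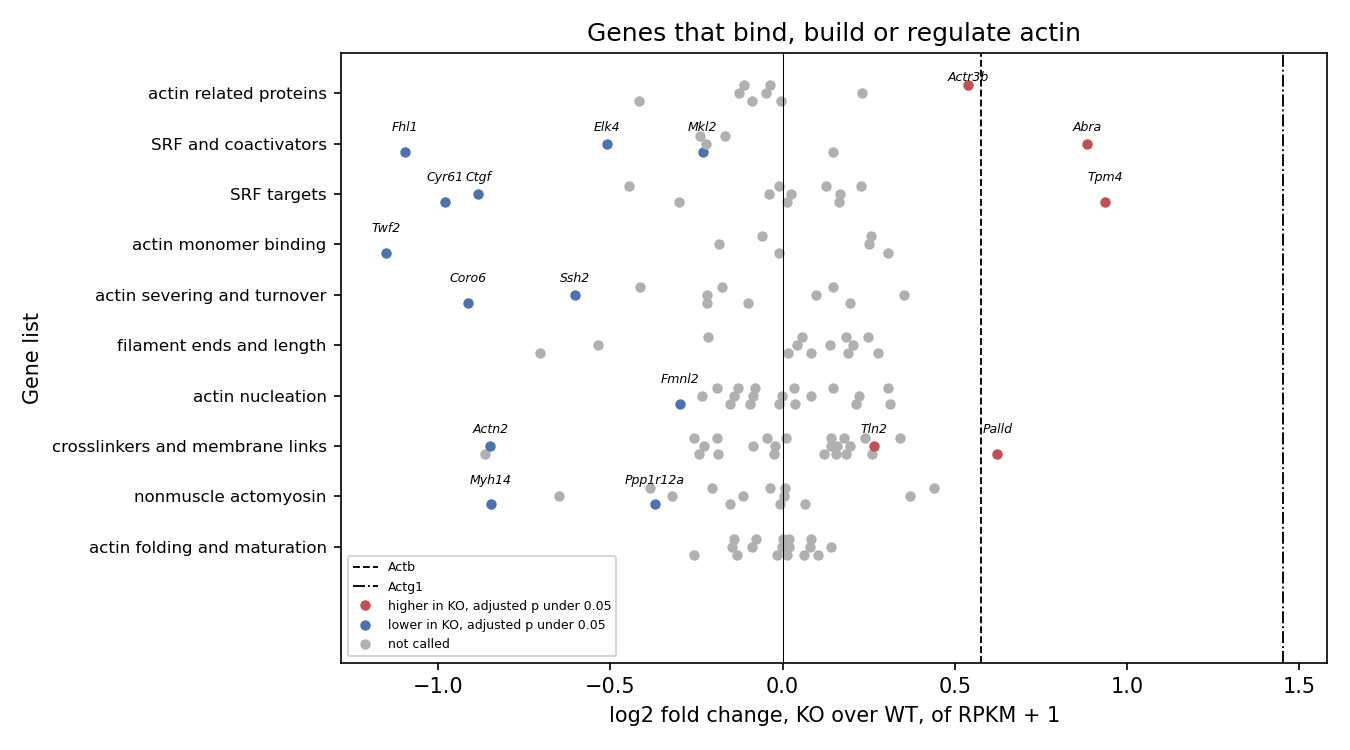
Log2 fold change (KO over WT, of RPKM + 1) of each tested gene in the 10 actin pathway lists, with genes called higher in red, called lower in blue and not called in grey, and the values of Actb (0.58) and Actg1 (1.45) as vertical lines. No gene of these lists reaches the value of Actg1, and 0 genes are called in the lists of filament ends and of folding.

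Several cell types of muscle express the cytoplasmic actins, and the levels of their markers are given beside that result. Leukocyte markers summed to 6.55 to 14.9 RPKM in WT and 22.6 to 28.5 in KO, a separation that rested on Ighm, an immunoglobulin heavy chain, at 5.52 ± 3.40 and 17.1 ± 4.56 RPKM. Only 5 of the 12 leukocyte genes had values, with the common marker Ptprc at 0.0763 to 0.151 RPKM in all 6 libraries, and Lyz2 and Cd74 did not pass (adjusted p = 0.851 and 0.224). Ighm was called at an adjusted p of 0.0207, and its call was lost without WT replicate 3 or KO replicate 1 or 3 (up to 0.0777). Their part in the higher cytoplasmic actins was not tested.

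Fibroblast and matrix markers, all 12 with values, summed to 37.8 to 51.5 RPKM in WT and 45.2 to 54.2 in KO and overlapped. Of 9 tested, 3 were called higher (33.3%), beside 3.83% of all tested genes. They were Col3a1, Col6a2 and Smoc2, with log2 fold changes of 0.47, 0.61 and 0.50 and adjusted p of 0.0345, 0.0210 and 0.0398 in limma. Each lost its call when WT replicate 3 or KO replicate 1 or 2 was left out, Col3a1 and Smoc2 also without WT replicate 4 or KO replicate 3 (up to 0.139). Endothelial markers, all 11 with values, had sums of 55.2 to 76.5 RPKM in WT and 43.2 to 48.5 in KO, which did not overlap. The median log2 fold change of the tested ones was -0.35, against -0.09 over all tested genes. Fabp4, which fat cells also express, had the highest level among them, at 31.4 ± 3.96 RPKM in WT and 20.9 ± 1.61 in KO, and 7 of the 9 tested genes were not called. Fabp4 alone gave 26.9 to 34.3 RPKM of the WT sums and 19.1 to 22.3 RPKM of the KO sums. Of those not called, Pecam1, Kdr and Tek were lower in every KO library than in any WT library, as were 30.0% of all tested genes. Cdh5, Flt1, Esam and Egfl7 overlapped between genotypes, with log2 fold changes of -0.25, 0.02, -0.10 and -0.03. Cldn5 and Fabp4 were the 2 of 9 tested that were called lower (22.2%), beside 13.5% of all tested genes. They fell by 1.03 and 0.56 on the log2 scale (adjusted p = 0.00744 and 0.0140 in limma), and Fabp4 lost its call without KO replicate 3 (0.0694).

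Schwann cell markers, 6 of 8 with values, had the largest median difference of the marker lists (log2 fold change -1.42). Their sums were 31.2 to 49.7 RPKM in WT and 7.14 to 9.86 in KO. All 4 tested genes were called lower, beside 13.5% of all tested genes. Adipocyte markers had 2 of 6 genes in the table, Car3 and Fabp4, and their sum was 210 to 232 RPKM in WT and 117 to 140 in KO. Both were called lower, Fabp4 being the gene already counted as endothelial and Car3, which muscle fibres also express, making up most of the sum. Adipoq, Plin1, Cfd and Lep were not analysed here. Tenocyte (2.62 to 4.92 and 3.92 to 5.04 RPKM) and red cell sums (25.5 to 44.5 and 18.3 to 110 RPKM) overlapped. Synpo2, an actin-binding protein of smooth muscle and the Z-disc, was the only called gene of the 10 tested smooth muscle and pericyte markers (10%). It rose from 22.1 ± 0.874 to 34.0 ± 4.05 RPKM (adjusted p = 0.00804 in limma), beside 3.83% of all tested genes called higher. The median log2 fold change of the 10 tested markers was -0.07, and they did not all move as Synpo2 did. Myh11, Tagln and Lmod1 stood at -0.30, -0.30 and -0.36 and Rgs5 at 0.31, none of them called. The part of these cell types in the actin values was not tested.

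The genes most like each actin were taken by Pearson correlation of log2(RPKM + 1) over the 6 libraries, among 5672 genes in the upper 75% of tested genes by level, and are a description of points that share libraries and depth. For Actg1 they were Ifi205, an interferon-induced gene (r = 0.997), Ppp1r3c, a glycogen-targeting phosphatase subunit (0.997), and Otub1, a deubiquitinase (0.996). Ppp1r3c stood at 110 ± 25.5 RPKM in WT against 362 ± 21.6 in KO (± SD, n = 3 each). Since the genotype difference alone gives a high value, the correlation of deviations from the genotype means is set beside it, at 0.937, 0.943 and 0.958. For the genes most like the other actins, named below, it ran from 0.9054 to 0.9915. The choice by total correlation over the same libraries raises this value too, so it is no separate check. For Actb the most alike were S100a11, Gm38158 and Palld, at 0.992, 0.991 and 0.990. For Actc1 they were Pgk1, a glycolytic enzyme, B3galnt2 and Rnf139, at 0.989, 0.988 and 0.987. Acta1 was most like Sf3b1, Mief2 and Tmod1, the thin filament pointed-end cap, at 0.965, 0.949 and 0.924. Acta2 was most like Ptma, Apool and Klf4, at 0.986, 0.981 and 0.957.

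Between the actins, Actb and Actg1 correlated at 0.934 over the 6 libraries, and at 0.185 after removal of the genotype means. For Actg1 with Gm23419 the values were 0.997 and 0.983, and with Mir6935 they were 0.992 and 0.863. Both lie in the transcribed Actg1 sequence and can share its reads, so these are not correlations of independent values.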

How the data were processed

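Gastrocnemius RNA of 3 WT and 3 KO libraries was made into cDNA with random primers after mRNA fragmentation, per the labels' protocols. The authors deposited RPKM values for 11815 genes. RPKM was inferred from the values, since the header names no unit. Gene lengths and library totals of 54370181 to 69693905 reads gave whole reads (within 0.02) for 11812 genes, and GENCODE M21 lengths did so for 80.4% of 11482 genes with 1 length there. The length behind Acta2 was inferred. 17 symbols look like dates. Per the file headers, the remaining columns are the authors' log2 fold change, log2 CPM, F (a score), p-value and FDR. The build is GRCm39 per the submitters' processing notes, while coordinates and sequences here are of GRCm38. The sources used here name no aligner, counting tool or strand setting. Libraries of the same genotype differed by more than sampling noise.

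Genotype was tested with limma-trend (limma 3.58.1, R 4.3.3) on log2(RPKM + 1), 2-sided, where 3 or more libraries reached 1 RPKM, with Benjamini-Hochberg adjustment at 0.05. Fold changes on this scale understate low genes. The 7 genes and all lists were chosen with earlier results of these data known. Named genes were all 7, up to 4 called genes per list by size of change or the smallest p where none was called, a few further list genes chosen after their values were seen, and the 3 most alike genes per actin. Some genes that this rule took are left out of the text. Replicate numbers 2 and 3 occur in both genotypes, but the labels do not pair them. Alternatives were a pseudocount of 0.1, no filter, equal library medians, totals without the 10 most abundant genes, limma-voom on recovered reads, a replicate block, each library left out, and an unadjusted p. Python 3.11.15, pandas 2.3.3 and Biopython 1.88 handled tables and sequences.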

Additional observations from a re-analysis of the deposited data

How the results depend on the processing

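Over 12 alternatives each, the log2 fold change kept its sign for Acta1 (0.007 to 0.20), Actc1 (-1.26 to -0.47), Actb (0.48 to 0.74), Actg1 (1.31 to 1.63), Mir6935 (1.92 to 2.38) and Gm23419 (1.28 to 1.62), and that of Acta2 ran from -0.26 to 0.11. Acta1 moved from 0.05 to 0.15 with equal library medians and 0.20 with totals without the 10 most abundant genes, and Actb from 0.58 to 0.74 with the latter. The log2 difference of Actg1 to Actb ran from 0.76 to 1.02 and that of Actc1 to Acta1 from -1.33 to -0.56.

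All calls (1311) ran from 438 to 1479 with each library left out, those higher (290) from 96 to 335 and those lower (1021) from 342 to 1144. At an unadjusted p under 0.05 they were 2532, 575 and 1957. Calls higher were 602 with equal library medians and 774 with totals without the 10 most abundant genes, and calls lower 665 with equal medians. The cause of these shifts was not tested.

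Actin pathway genes called higher (5) ran from 2 to 12 with each library left out and were 18 with equal library medians, 21 with totals without the 10 most abundant genes, 9 with a replicate block and 14 unadjusted. Those called lower (12) ran from 5 to 17 and were 29 unadjusted. Same-numbered libraries correlated at 0.479 and 0.27 in their deviations, and the labels do not say whether they share more than a number. The replicate block gave 1548 calls, 1064 of them shared with the fit without it.

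With 3 libraries per genotype, precision is set by the spread between them. Mir6935 rests on 17 to 42 reads per WT library.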

Other observations

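The authors' deposited table also holds a log2 fold change per gene from a test that is not named in the sources used here. For Actg1 the authors' deposited table gives 1.21 and for Actb 0.51, while the log2 ratios of the mean deposited RPKM are 1.49 and 0.62. For Actc1 the authors' deposited table gives 0.04, against -0.95 from the deposited RPKM. For Acta1 the authors' deposited table gives 0.20 against 0.05, and for Acta2 -0.01 against -0.08. For Mir6935 and Gm23419 the authors' deposited table gives 1.68 and 1.13, against 2.26 and 1.46. Which libraries entered the authors' comparison was not tested.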
